A study of Mus musculus with 50 samples.

Results

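Pulmonary surfactant contains 4 classical surfactant proteins, and their genes Sftpa1, Sftpb, Sftpc and Sftpd were followed across a mouse series on the cytokine interleukin-13 (IL-13) in the airway. Members were found by gene symbol in the platform annotation, and 3 of the 4 had a probe: Sftpa1, Sftpc and Sftpd, among 18272 probes of a larger platform and 18057 of a smaller platform. Sftpb, which encodes a hydrophobic surfactant protein, had no probe under that symbol and was not analysed here. Each array compared 1 sample with a reference, and its values were centred on the array median, so a level of 0 is that of the median spot and a difference of 1 on the log2 scale is a doubling.

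The 50 arrays formed 10 groups of 5, with 25 arrays of RNA from tracheal perfusate and 25 of whole lung RNA. Of the 5 groups of a tissue, 3 are labelled IL-13, with genotype Stat6+/- (a heterozygote with a working allele of the transcription factor Stat6), Stat6-/- (no working allele) and Stat6-/- Epi+. How IL-13 was given is not stated. The other groups are labelled OVA and PBS, the usual short forms of ovalbumin, an allergen, and of phosphate-buffered saline, and their genotype is not given in the labels. Epi+ appears only as a mark. Mouse lines of that name carry a transgene giving Stat6 back to the airway epithelium, and the labels do not say more. No group is labelled Stat6-/- or Stat6+/- without IL-13, so a genotype difference present without the cytokine and a genotype difference in the response to it cannot be told apart. The labels give 1 round of RNA amplification for perfusate, which 3 arrays of reference preparation 1.3 do not state, and no amplification for whole lung. Nothing in the labels says that arrays came from separate animals. The p-values set a group difference against the spread left among these samples, and that spread may be technical.

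Surfactant is a film of lipid and protein that lowers the surface tension of the alveoli. Alveolar type II cells make it and store it in lamellar bodies. Surfactant proteins A and D, the products of Sftpa1 and Sftpd, are collectins: soluble lectins that bind sugars on microbes and help macrophages to take them up, and secretory cells of the airway also make them. Surfactant proteins B and C are small hydrophobic proteins that spread the lipid film, and Sftpc is a defining gene of type II cells. In allergic airways the cytokine IL-13 acts on epithelial cells through Stat6 and turns secretory cells towards mucus production.

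Sftpa1 and Sftpd are close neighbours in the mouse genome. Among the protein-coding genes of the RefSeq table of assembly GRCm38.p6, only the collectin gene Mbl1 stands between them. The 250 bases before the RefSeq start of Sftpa1 are shown because this gene had the largest genotype differences among the members in perfusate. They lie at chr14:41131538-41131787 on the + strand of GRCm38.p6, and the capitals mark the core sequence bound by the lung transcription factor NKX2-1, TCAAG, or its reverse complement CTTGA.

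Sftpa1 promoter: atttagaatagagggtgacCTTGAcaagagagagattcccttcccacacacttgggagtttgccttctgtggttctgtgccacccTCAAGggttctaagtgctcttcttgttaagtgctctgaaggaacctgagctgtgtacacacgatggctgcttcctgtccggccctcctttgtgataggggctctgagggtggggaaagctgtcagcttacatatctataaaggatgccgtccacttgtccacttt

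Both strands were searched, and the 2 matches begin at positions -231 and -165 from the start. Over 32851 promoter windows of 300 bases (250 before and 50 after a start), 40.7% held this 5-letter core and 10.8% held it at least 2 times. The pattern of a Stat6 site, TTC and GAA with 4 bases of any kind between them, was not in the Sftpa1 window, and 6.95% of windows held it. A match is a description of the letters and not of binding. For Sftpc and Sftpd no promoter is shown.

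The labels were checked first, though a ratio to a reference cannot show whether a marker of a tissue is absent. Clca1, a secreted product of goblet cells that responds to IL-13, was higher in Stat6+/- than in Stat6-/- arrays by 3.77 ± 0.31 in perfusate (log2 difference ± SE, limma adjusted p = 1.18e-06) and by 7.58 ± 0.61 in whole lung (adjusted p = 1.53e-05). Il13, the transcript of the cytokine itself, was lower in Stat6+/- than in Stat6-/- perfusate by -0.99 ± 0.21 (adjusted p = 0.012) and differed by -0.67 ± 0.21 between Epi+ and Stat6-/- perfusate (adjusted p = 0.261), and the part of this difference in the results that follow was not tested. The Stat6 probe differed by -0.10 ± 0.14 in perfusate (adjusted p = 0.851) and by -0.19 ± 0.28 in lung (adjusted p = 0.766). Its place relative to the disrupted part of the gene is not known here, so it checks nothing. Stat6-/- arrays did not form an even group in sex-linked genes. The probe NM_012011 of the Y-linked gene Eif2s3y lay between -3.45 and -1.93 on perfusate replicates 10, 11 and 12 and between -3.16 and -3.06 on whole lung replicates 1 and 2, against lowest levels of -0.0035 and -0.51 on the other Stat6-/- arrays of the 2 tissues. Its other probe, AK012186, did not separate the perfusate arrays (0.03 to 0.52 against -0.39 to 0.44). The Y-linked gene Uty was at -2.10 to -0.93 against -0.73 to -0.09 in perfusate and -4.35 to -3.66 against -0.61 to 0.38 in lung. The X-linked gene Xist was at -0.33 to 0.91 against -2.58 to -1.36 in perfusate, and at 7.35 on the 1 such lung array with a value, against -3.15 to 0.89. Y-linked Kdm5d was at -0.03 to 0.25 against 0.93 to 1.01 in perfusate, where the other groups ranged from -1.51 to 2.06. Whether these arrays differ in sex was not tested. Member results and list counts against Stat6-/- arrays were therefore also computed without these 5 arrays. Such fits rest on only 2 Stat6-/- arrays in perfusate and 3 in whole lung. Arrays had a value for 15693 to 18655 spots, and precision is limited by their number. The mean array median removed by centring was higher by 0.12 in Stat6+/- than in Stat6-/- perfusate, lower by 0.20 and 0.18 in Stat6-/- and Epi+ than in PBS perfusate, and moved in whole lung by -0.37 (Stat6+/- against Stat6-/-), -0.16 (Epi+ against Stat6-/-), -0.21 (Stat6+/- against Epi+) and -0.17 (OVA against PBS), so each difference is relative to its shift.

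**Figure D1:**
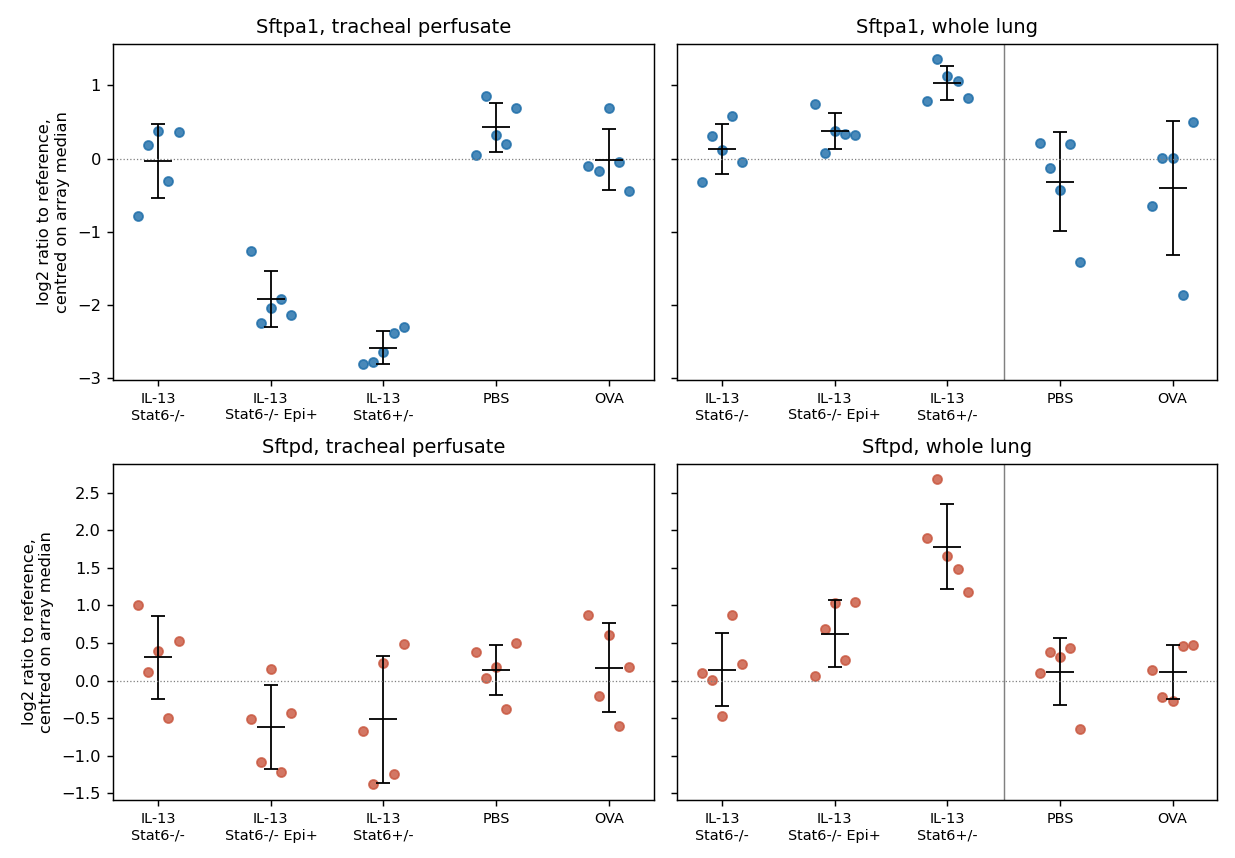
Levels of Sftpa1 (top) and Sftpd (bottom) on each array of perfusate (left) and whole lung (right), as log2 ratio to the reference centred on the array median; points are arrays, bars are the mean ± SD of 5 arrays. A vertical line separates whole lung arrays of the 2 platforms, and perfusate and whole lung had different references, so heights are comparable only within a panel and a side of the line. Sftpa1 is low on all Stat6+/- and Epi+ perfusate arrays (-2.81 to -1.26), and Sftpd is high on all Stat6+/- whole lung arrays (1.18 to 2.67).

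In tracheal perfusate Sftpa1, the gene of the collectin surfactant protein A, was much lower in IL-13 Stat6+/- and IL-13 Stat6-/- Epi+ samples than in IL-13 Stat6-/- or PBS samples. Its centred log2 levels in Stat6+/- perfusate were -2.81, -2.77, -2.64, -2.39 and -2.30 (replicates 4 to 8; mean -2.58 ± 0.23 SD, n = 5). In Stat6-/- perfusate they were -0.79, 0.18, 0.38, -0.30 and 0.36 (replicates 10 to 14; -0.04 ± 0.50 SD, n = 5). In Epi+ perfusate they were -1.26, -2.25, -2.04, -1.91 and -2.13 (replicates 16 to 20; -1.92 ± 0.39 SD, n = 5). The highest Stat6+/- array (-2.30) lay by a narrow margin below the lowest Epi+ array (-2.25). The highest Epi+ array (-1.26) lay below the lowest Stat6-/- array (-0.79). How many other probes separate these groups was not counted. PBS arrays were at 0.05, 0.85, 0.32, 0.21 and 0.70 (replicates 22 to 26; 0.42 ± 0.34 SD, n = 5), and OVA arrays at -0.10, -0.16, 0.69, -0.05 and -0.44 (replicates 28 to 32; -0.01 ± 0.42 SD, n = 5). The order from high to low was PBS, OVA, Stat6-/-, Epi+ and Stat6+/-, and the ranges of PBS, OVA and Stat6-/- overlapped one another. In bulk RNA, fewer cells of a type and less RNA per cell cannot be told apart.

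The Sftpa1 difference between Stat6+/- and Stat6-/- perfusate was -2.55 ± 0.25 (95% interval -3.08 to -2.01), a 5.84-fold lower level, with an adjusted p of 1.63e-05 in limma. Of 16873 probes, 3.14% passed in this comparison and 2.02% passed as lower, and Sftpa1 had the 6th smallest p. Without the 3 Stat6-/- perfusate arrays that stood apart in sex-linked genes, which left 2, its difference was -2.64 ± 0.34 (adjusted p = 0.00143). Epi+ perfusate was lower than Stat6-/- perfusate by -1.88 ± 0.25 (-2.42 to -1.35), or 3.69-fold, with an adjusted p of 0.00103, against 0.486% of probes passing and 0.338% passing as lower. Without the arrays that stood apart, this was -1.97 ± 0.34 (adjusted p = 0.0309), and with only the 2 groups in the fit the adjusted p was 0.285. Stat6+/- and Epi+ perfusate differed by -0.66 ± 0.25 (-1.19 to -0.13), which did not pass (adjusted p = 0.559), in a comparison where 0.0237% of probes did.

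Each of the 5 reference preparations was hybridised with 1 array of every perfusate group, so the groups could be compared within a preparation. Sftpa1 was lower in Stat6+/- than in Stat6-/- perfusate in 5 of 5 preparations, by -3.01 to -2.02. It was lower in Epi+ than in Stat6-/- perfusate in 5 of 5, by -2.49 to -0.47, with the smallest difference in preparation 1.3. Between Stat6+/- and Epi+ perfusate the sign was also shared by all 5 preparations, at -1.55 to -0.17. How many other probes keep 1 sign in all 5 preparations was not counted. These are also the arrays of the fit, so such counts, here and below, are a description and not separate support.

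**Figure D2:**
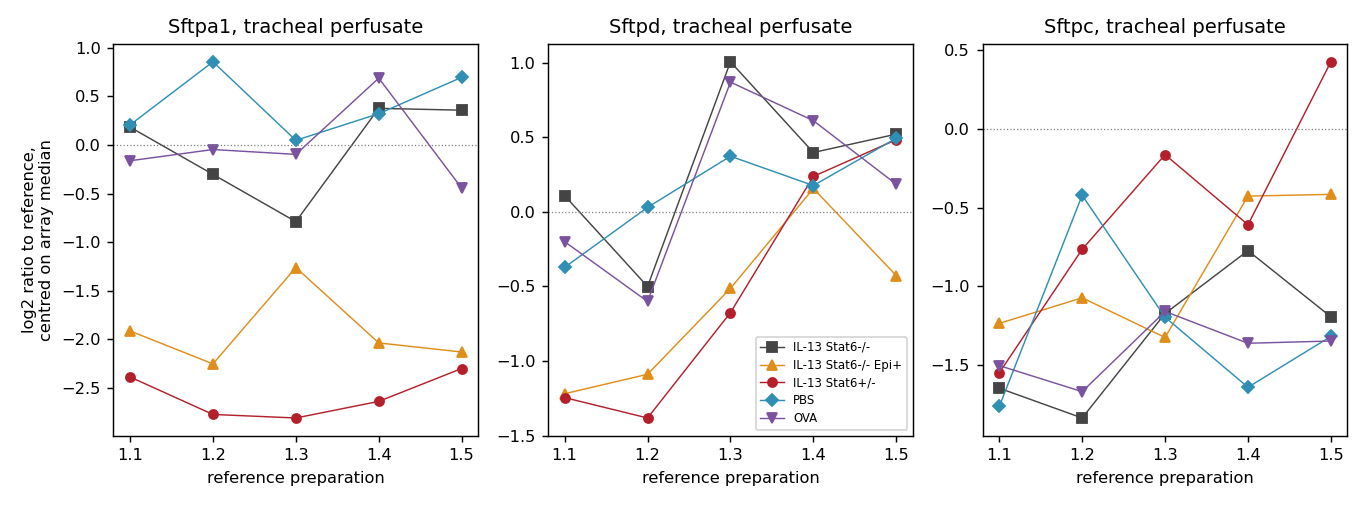
Levels of Sftpa1, Sftpd and Sftpc in perfusate (log2 ratio to reference, centred on the array median) for each reference preparation 1.1 to 1.5; each point is 1 array, and lines join arrays of a group for reading only, since preparations have no order. For Sftpa1 the Stat6+/- and Epi+ arrays lie below the others in every preparation, while for Sftpd all groups are lower in preparations 1.1 and 1.2 (means -0.59 and -0.71) than in the others (0.21 to 0.32).

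Against PBS, the Sftpa1 level of Stat6+/- perfusate was lower by -3.01 ± 0.25 (-3.54 to -2.47), or 8.04-fold, with a limma adjusted p of 2.33e-06 and the 2nd smallest p of all probes. In this comparison 7.13% of probes passed and 4.28% passed as lower. Epi+ perfusate was lower than PBS by -2.34 ± 0.25 (-2.88 to -1.81), or 5.08-fold (adjusted p = 6.02e-05), where 2.83% of probes passed and 1.56% passed as lower, and the adjusted p was 0.0783 with only the 2 groups in the fit. Both were lower in 5 of 5 preparations. Stat6-/- perfusate differed from PBS by -0.46 ± 0.25 (-0.99 to 0.07; adjusted p = 0.322; 0.599% of probes passed), and OVA differed from PBS by -0.44 ± 0.25 (-0.97 to 0.09; adjusted p = 0.658; 0.237% passed). Neither Sftpa1 difference passed, and each was negative in 4 of 5 preparations. The comparisons with PBS share the same PBS arrays, and those with Stat6-/- share the same Stat6-/- arrays, so their differences are not independent.

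Sftpd, the gene of the collectin surfactant protein D, had lower mean levels in the same IL-13 groups of perfusate, with smaller differences that did not pass. Its levels were -0.68, -1.38, 0.24, -1.25 and 0.48 in Stat6+/- perfusate (-0.52 ± 0.85 SD, n = 5) and 1.01, 0.11, 0.40, -0.50 and 0.52 in Stat6-/- perfusate (0.31 ± 0.56 SD, n = 5), with the replicates in the order given for Sftpa1. In Epi+ perfusate they were -0.51, -1.09, 0.16, -1.22 and -0.43 (-0.62 ± 0.55 SD, n = 5). The groups overlapped, and arrays of preparations 1.1 and 1.2 were low in each of them. Levels in PBS perfusate were 0.37, 0.03, 0.18, -0.37 and 0.49 (0.14 ± 0.34 SD, n = 5), and in OVA perfusate 0.87, -0.20, 0.61, -0.60 and 0.18 (0.17 ± 0.59 SD, n = 5). The order of means was Stat6-/-, OVA, PBS, Stat6+/- and Epi+, and the ranges of all neighbours in it overlapped.

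With the preparation as a block, Sftpd differed between Stat6+/- and Stat6-/- perfusate by -0.82 ± 0.23 (-1.31 to -0.33; limma adjusted p = 0.0649). The difference was negative in 5 of 5 preparations, but ranged from -1.68 to -0.04. It was -1.02 with an adjusted p of 0.02 without Stat6+/- replicate 8, and -0.61 with an adjusted p of 0.505 without the 3 Stat6-/- arrays that stood apart in sex-linked genes. Epi+ differed from Stat6-/- perfusate by -0.93 ± 0.23 (-1.41 to -0.44; adjusted p = 0.101), with 5 of 5 preparations negative at -1.52 to -0.24, and by -0.71 (adjusted p = 0.603) without the arrays that stood apart. Against PBS the Sftpd differences were -0.66 ± 0.23 for Stat6+/- (adjusted p = 0.0977; -0.86 and 0.0338 without Stat6+/- replicate 8) and -0.76 ± 0.23 for Epi+ (adjusted p = 0.0858). Stat6+/- and Epi+ differed by 0.10 ± 0.23 (-0.39 to 0.59; adjusted p = 0.978). OVA and PBS differed by 0.03 ± 0.23 (adjusted p = 0.986; -0.0087 without centring) and Stat6-/- and PBS by 0.17 ± 0.23 (adjusted p = 0.726; -0.037 without centring and -0.047 without the arrays that stood apart), so no direction is given for them.

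Sftpc, the hydrophobic surfactant protein of type II cells, had higher mean levels in Stat6+/- than in Stat6-/- perfusate, opposite in sign to the collectins. Its levels were -0.16, -0.76, -0.61, -1.55 and 0.43 in Stat6+/- perfusate (-0.53 ± 0.73 SD, n = 5), -1.17, -1.65, -0.77, -1.84 and -1.19 in Stat6-/- perfusate (-1.32 ± 0.42 SD, n = 5) and -1.32, -1.07, -0.43, -1.23 and -0.42 in Epi+ perfusate (-0.89 ± 0.44 SD, n = 5). PBS arrays lay at -1.20, -0.42, -1.64, -1.76 and -1.32 (-1.27 ± 0.53 SD, n = 5), and OVA arrays at -1.16, -1.50, -1.36, -1.67 and -1.35 (-1.41 ± 0.19 SD, n = 5). All 5 groups overlapped. The difference between Stat6+/- and Stat6-/- was 0.79 ± 0.28 (0.21 to 1.37; limma adjusted p = 0.162), positive in 5 of 5 preparations at 0.10 to 1.62, and 1.19 (adjusted p = 0.206) without the arrays that stood apart. Against PBS, Stat6+/- perfusate differed by 0.74 ± 0.28 (adjusted p = 0.116), and by 1.02 with an adjusted p of 0.0207 without PBS replicate 23, the highest Sftpc level of its group. Epi+ differed from Stat6-/- by 0.43 ± 0.28 (-0.15 to 1.01; adjusted p = 0.867), which was 0.82 (adjusted p = 0.649) without those arrays. Stat6+/- differed from Epi+ by 0.36 ± 0.28 (adjusted p = 0.879), Epi+ from PBS by 0.37 ± 0.28 (adjusted p = 0.455) and OVA from PBS by -0.14 ± 0.28 (adjusted p = 0.932). For Stat6-/- against PBS the value was -0.06 ± 0.28 (adjusted p = 0.929), which became 0.056 after quantile normalization and -0.45 (adjusted p = 0.593) without the arrays that stood apart.

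**Figure D3:**
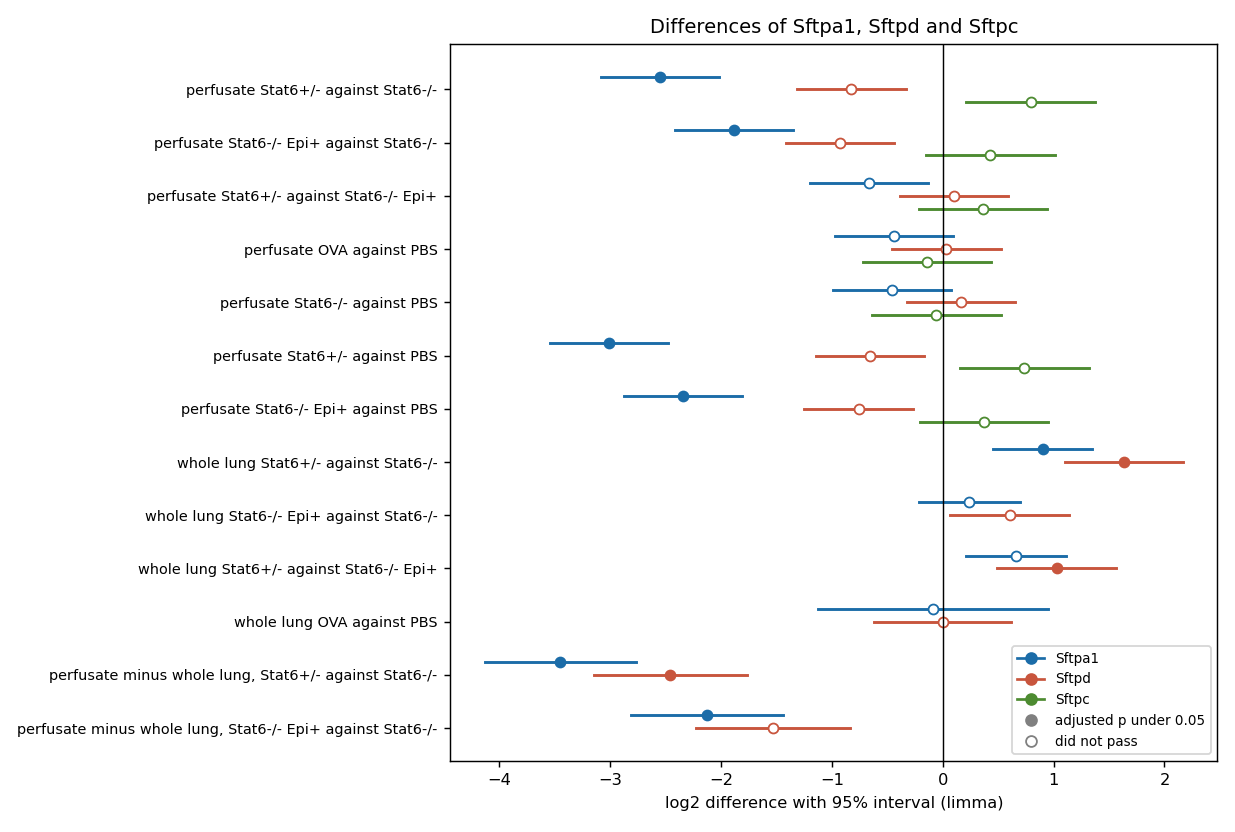
Log2 differences of Sftpa1 (blue), Sftpd (red) and Sftpc (green) in each comparison with the 95% interval of the limma fit; filled circles have an adjusted p under 0.05. Sftpa1 lies far below 0 for Stat6+/- and Epi+ in perfusate (-3.01 to -1.88) and above 0 for Stat6+/- against Stat6-/- in whole lung (0.90); Sftpc is not drawn for whole lung, where its ratios were pinned near 1.

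In whole lung the 2 collectin genes were higher, not lower, in IL-13 Stat6+/- samples. Sftpd levels in Stat6+/- lung were 1.90, 2.67, 1.65, 1.48 and 1.18 (replicates 1, 3, 4, 5 and 6; mean 1.78 ± 0.57 SD, n = 5). In Stat6-/- lung they were 0.10, 0.0026, -0.47, 0.87 and 0.22 (replicates 1, 2, 4, 5 and 6; 0.14 ± 0.48 SD, n = 5), and in Epi+ lung 0.07, 0.68, 1.04, 0.27 and 1.05 (replicates 1, 2, 3, 4 and 6; 0.62 ± 0.44 SD, n = 5). The lowest Stat6+/- array (1.18) lay above the highest Epi+ (1.05) and Stat6-/- (0.87) arrays, while Epi+ and Stat6-/- overlapped. How many other probes separate the groups in this way was not counted. The difference between Stat6+/- and Stat6-/- lung was 1.63 ± 0.25 (1.10 to 2.16), a 3.10-fold higher level, with a limma adjusted p of 0.00219. In this comparison 4.84% of 16096 probes passed, 3.23% as higher. The Sftpd difference was 1.62 ± 0.29 (adjusted p = 0.0199) without the 2 Stat6-/- arrays that stood apart, and 1.65 and 1.62 within reference pools 3 and 4, but 1.26 with an adjusted p of 0.0681 without centring.

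Sftpd was also higher in Stat6+/- than in Epi+ lung, by 1.03 ± 0.25 (0.49 to 1.57) or 2.04-fold, with a limma adjusted p of 0.0414, where 3.42% of probes passed and 2.4% passed as higher. This call was near the threshold: the adjusted p was 0.326 without centring, and it also exceeded the threshold when Epi+ replicates 1, 3, 4 or 6 or Stat6+/- replicates 3 or 4 were left out in turn, at 0.88 to 1.16 and adjusted p of 0.0306 to 0.0932 over the 10 omissions. Epi+ and Stat6-/- lung differed in Sftpd by 0.60 ± 0.25 (0.07 to 1.14; adjusted p = 0.983; 0.61 without the arrays that stood apart), where 0.0746% of probes passed.

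Sftpa1 levels in Stat6+/- lung were 0.79, 1.36, 1.13, 1.06 and 0.82 (1.03 ± 0.23 SD, n = 5), in the replicate order given for Sftpd. They were -0.32, 0.31, 0.12, 0.59 and -0.05 in Stat6-/- lung (0.13 ± 0.34 SD, n = 5) and 0.75, 0.08, 0.38, 0.34 and 0.33 in Epi+ lung (0.38 ± 0.24 SD, n = 5). The lowest Stat6+/- array (0.79) lay by a narrow margin above the highest Epi+ array (0.75), and other probes were again not counted. The difference between Stat6+/- and Stat6-/- lung was 0.90 ± 0.21 (0.46 to 1.35), or 1.87-fold, with a limma adjusted p of 0.0246. It was 0.76 and 1.00 within pools 3 and 4. The Sftpa1 call was lost without centring (0.53, adjusted p = 0.405) and without the Stat6-/- arrays that stood apart (0.82, adjusted p = 0.12). It was also lost when Stat6-/- replicates 1, 4 or 6 or Stat6+/- replicates 3 or 5 were left out, with adjusted p of 0.0173 to 0.0684 over the 10 omissions. Stat6+/- and Epi+ lung differed by 0.66 ± 0.21 (0.21 to 1.11; adjusted p = 0.103), and Epi+ and Stat6-/- lung by 0.24 ± 0.21 (-0.21 to 0.69; adjusted p = 0.983; 0.17 without the arrays that stood apart).

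The signs thus opposed between tissues, and the difference of the differences was tested directly in the 40 arrays of the larger platform. For Stat6+/- against Stat6-/-, perfusate minus whole lung was -3.45 ± 0.33 (-4.13 to -2.77) for Sftpa1 (limma adjusted p = 5.26e-08, the 6th smallest p) and -2.46 ± 0.34 (-3.14 to -1.77) for Sftpd (adjusted p = 1.59e-05). In this test 4.31% of 15370 probes passed, 3.06% with a negative value. Without the 5 Stat6-/- arrays that stood apart the values were -3.45 (adjusted p = 2.64e-05) and -2.23 (adjusted p = 0.00502). For Epi+ against Stat6-/- the tissue difference was -2.12 ± 0.33 for Sftpa1 (adjusted p = 0.00166; 0.0521 without the arrays that stood apart and 0.303 without centring), with 0.0976% of probes passing and 0.0846% passing with a negative value. It was -1.53 ± 0.34 for Sftpd, which did not pass (adjusted p = 0.0851; -1.64 and 0.0445 without whole lung Stat6-/- replicate 5). Perfusate RNA was amplified and whole lung RNA was not, and the references differed, so tissue and these steps cannot be told apart.

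Whole lung of the OVA and PBS groups, on the smaller platform, gave no collectin difference that passed. Sftpd levels were 0.14, -0.22, -0.27, 0.46 and 0.47 in OVA lung (replicates 1, 2, 4, 5 and 6; 0.12 ± 0.36 SD, n = 5) and 0.10, 0.38, 0.32, 0.43 and -0.65 in PBS lung (replicates 1 to 5; 0.12 ± 0.44 SD, n = 5). They differed by -0.0018 ± 0.28 (-0.62 to 0.62; limma adjusted p = 0.998). Sftpa1 levels were -0.65, 0.0098, 0.0025, -1.87 and 0.50 in OVA lung (-0.40 ± 0.91 SD, n = 5) and 0.21, -0.13, -0.43, 0.20 and -1.42 in PBS lung (-0.31 ± 0.67 SD, n = 5). OVA replicate 5 and PBS replicate 5 were low in their groups, and the Sftpa1 difference of -0.09 ± 0.47 (-1.12 to 0.95; adjusted p = 0.945) was 0.28 without that OVA array and -0.36 without that PBS array. In this comparison 1.75% of 17047 probes passed.

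Sftpc could not be compared in whole lung, because its deposited ratio was almost the same number on nearly every array. It lay within 0.995 to 1.005 on 12 of 15 IL-13 arrays, with 0.984, 1.087 and 1.242 on the others, and on 10 of 10 OVA and PBS arrays (0.998 to 1.002). Of all values of these arrays, 1.39% and 1.33% lay in that window. Only Tmsb4x, an abundant actin-binding peptide gene, matched the Sftpc count on the larger platform, with 14 of 15 arrays, and no spot matched it on the smaller. None of the 25 perfusate arrays had a Sftpc ratio in the window, and they ranged from 0.17 to 1.252. After centring, a ratio fixed at 1 only mirrors the array median, so no test of Sftpc in whole lung or between tissues is given. Spot intensities were not used, and the cause was not tested.

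**Figure D4:**
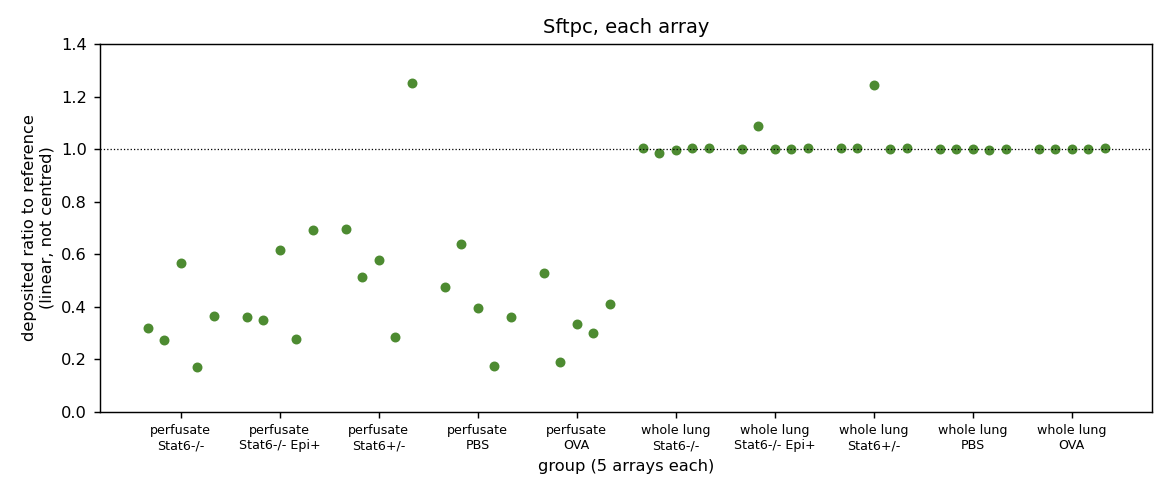
Deposited ratio of Sftpc to the reference on each of the 50 arrays (linear axis, not centred), by group. Perfusate arrays spread from 0.17 to 1.252, whereas 22 of 25 whole lung arrays lie within 0.005 of 1, the dotted line.

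Other genes of the surfactant system were counted beside Sftpa1, against the 3.14% of all probes that passed between Stat6+/- and Stat6-/- perfusate. At that share few calls would be seen in lists this short, so a count of 0 is near it. Counts at an unadjusted p under 0.05, here and below, have another background. More probes reach that limit than pass: in this comparison the limma p of 0.00993 for Sftpc ranked only 1033 of 16873. The share of all probes at that limit is not given, so these counts are not read as an excess. No regulator of surfactant genes passed in limma (0 of 12, with 4 at an unadjusted p under 0.05) and no processing protease (0 of 4, with 1 unadjusted). Of 19 lipid genes 6 had an unadjusted p under 0.05 and 1 passed: Lpin1, a phosphatidate phosphatase, fell by 0.71 ± 0.16 (adjusted p = 0.0168). Of 11 genes of surfactant clearance 3 had an unadjusted p under 0.05 and 2 passed: the lipid exporter Abcg1 rose by 0.67 ± 0.15 (adjusted p = 0.0116) and the fatty acid receptor Cd36 fell by 1.81 ± 0.28 (adjusted p = 0.000675). The median differences were 0.20 for the lipid list and -0.19 for clearance, beside -0.02 over all probes. Mbl1, the collectin gene between Sftpa1 and Sftpd, differed by -0.27 ± 0.81 (adjusted p = 0.952), with levels from -2.97 to 2.22 within Stat6-/- perfusate. None of the other 12 measured collectins and partners passed either, with 4 of the 13 at an unadjusted p under 0.05. In Epi+ against Stat6-/- perfusate, Cd14, a partner in the recognition of lipopolysaccharide, fell by 1.12 ± 0.21 (adjusted p = 0.0181) and was the only call among the same 5 lists. At an unadjusted p under 0.05 there were 2 lipid, 3 regulator and 1 clearance genes and no processing gene. Without the Stat6-/- arrays that stood apart, Cd36 was the only call of these lists in either comparison, at -1.85 ± 0.39 in Stat6+/- (adjusted p = 0.0324). The shares of all probes that then passed were 1.11% in Stat6+/- and 0.2% in Epi+ perfusate.

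Against PBS, calls in the surfactant lists went both ways. In Stat6+/- perfusate, where 7.13% of all probes passed, 2 of 19 lipid genes rose and 3 fell, 1 of 11 clearance genes rose and 1 fell, and 1 of 12 regulators fell. Plin2, a lipid droplet gene, rose by 0.58 ± 0.17 (adjusted p = 0.0418), the fatty acid carrier Fabp5 by 1.18 ± 0.29 (adjusted p = 0.0166) and Abcg1 by 0.91 ± 0.15 (adjusted p = 0.00078). In Epi+ perfusate, where 2.83% passed, 2 lipid genes and 2 regulators fell, and none of these 3 lists had a rise. Slc34a2, the phosphate carrier of type II cells and airway epithelium, had its lowest means in both groups with low Sftpa1. Its means in Stat6-/- and OVA perfusate, where Sftpa1 did not pass against PBS, were also below PBS. The levels were -2.21 ± 0.65 SD in Stat6+/-, -1.78 ± 0.11 SD in Epi+, -1.31 ± 0.52 SD in Stat6-/-, -1.15 ± 0.35 SD in OVA and -0.58 ± 0.23 SD in PBS perfusate (n = 5 each). Slc34a2 fell by 1.63 ± 0.25 in Stat6+/- (adjusted p = 0.000515) and by 1.20 ± 0.25 in Epi+ perfusate (adjusted p = 0.0141). It is 1 gene and does not describe type II markers as a set. Of 12 such markers, 1 passed as lower and 0 as higher against PBS in each of these groups. Their median differences were -0.08 in Stat6+/- and -0.21 in Epi+, beside -0.03 and -0.05 over all probes. The transcription factor Gata6 fell by 1.19 ± 0.34 (adjusted p = 0.0383) and 1.29 ± 0.34 (adjusted p = 0.0456). The desaturase Scd2 fell by 1.73 ± 0.18 (adjusted p = 2.25e-05) and 1.35 ± 0.18 (adjusted p = 0.000456), and also in Stat6-/- perfusate, by 1.49 ± 0.18 (adjusted p = 0.00078). These comparisons share the PBS arrays.

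Markers of the cells that make or surround surfactant were read beside Sftpa1. In perfusate, 0 of 12 type II markers passed between Stat6+/- and Stat6-/- (3 at an unadjusted p under 0.05), with a median difference of 0.10, a count near the 3.14% of all probes. Their mean level per array ranged from -0.66 to 0.35 in Stat6+/-, -0.41 to -0.03 in Stat6-/- and -0.52 to 0.0041 in Epi+ perfusate, which overlapped. Of 11 markers of club and other secretory cells 3 fell and none rose, beside 2.02% of all probes called lower. Haptoglobin (Hp), a secreted carrier of haemoglobin, fell by 2.53 ± 0.19 (adjusted p = 4.57e-07), the cholecystokinin receptor gene Cckar fell by 2.05 ± 0.29 (adjusted p = 0.000357) and the paraoxonase Pon1 fell by 1.75 ± 0.19 (adjusted p = 2.28e-05). The mean secretory marker level was -0.67 to -0.13 on Stat6+/-, 0.14 to 0.63 on Stat6-/- and -0.18 to 0.33 on Epi+ arrays. This list and its mean include Scgb1a1 and Cyp2f2, whose ratio was near 1 on some perfusate arrays, where a centred level only mirrors the array median. The highest Cyp2f2 level in Stat6-/- perfusate was 0.72, beside an array median of -0.72 on replicate 13. In PBS perfusate both genes reached 0.75, beside an array median of -0.75 on replicate 25. In Epi+ against Stat6-/- perfusate, Hp fell by 1.32 ± 0.19 (adjusted p = 0.00162) and Pon1 by 0.96 ± 0.19 (adjusted p = 0.0201), beside 0.338% of all probes. Without the arrays that stood apart, 3 of 11 secretory markers were lower in Stat6+/- and 0 of 11 in Epi+ perfusate, with 2 at an unadjusted p under 0.05. In these fits 1.11% and 0.2% of all probes passed in either direction. The part of these cells in the Sftpa1 result was not tested.

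Mucous markers moved the other way from Sftpa1 in perfusate: 5 of 8 rose in Stat6+/- and 3 of 8 in Epi+ against Stat6-/-, and none fell, beside 1.11% and 0.148% of all probes called higher. Without the arrays that stood apart, 2 of 8 were higher in each, beside 1.11% and 0.2% of all probes called in either direction. Muc5ac, a gel-forming mucin, rose by 3.38 ± 0.29 (adjusted p = 4.91e-06) and 2.44 ± 0.29 (adjusted p = 0.000433). Ciliated cell markers rose for 3 of 7 and 1 of 7 genes, with the ciliary transport gene Ift172 at 0.91 ± 0.14 (adjusted p = 0.0007) in Stat6+/-. Macrophage markers gave 0 of 10 calls in both comparisons, near the share of all probes, with 1 of 10 at an unadjusted p under 0.05 in each, and type I markers 0 of 9, with none unadjusted. Mucous genes also rose in OVA against PBS perfusate, where Sftpa1 did not pass: Clca1 by 3.39 ± 0.31 (adjusted p = 1.98e-05) and Muc5ac by 2.81 ± 0.32 (adjusted p = 0.000196).

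In whole lung, genes of several surfactant lists rose with Sftpd and Sftpa1 in Stat6+/- against Stat6-/-, beside 3.23% of all probes called higher. These rises are relative to the shift of -0.37 in the array medians. Without centring, lower calls outnumbered higher calls over all probes. The lists of this paragraph and the next were not counted again without centring. Of 12 type II markers 3 rose and none fell, namely the chemokine Cxcl15 by 1.52 ± 0.24 (adjusted p = 0.00286), complement component Hc by 1.30 ± 0.19 (adjusted p = 0.00155) and the desaturase Scd1 by 1.06 ± 0.23 (adjusted p = 0.0169). In this list 6 had an unadjusted p under 0.05, a count whose share over all probes is not given. The median was 0.36 beside -0.04 over all probes. Genes outside these calls went both ways: Slc34a2 was at 0.94 in Stat6+/- and 0.35 in Stat6-/- lung, and Lpcat1 at -0.43 and -0.12. Of 19 lipid genes 3 rose, Scd1 with the fatty acid carrier Fabp5 (2.03 ± 0.20, adjusted p = 7.24e-05) and the lipid droplet gene Plin2 (1.62 ± 0.23, adjusted p = 0.00155). The protease Ctsb was 1 of 3 processing genes to rise, by 2.07 ± 0.31 (adjusted p = 0.00201), and Stat3 1 of 12 regulators, a share near that of all probes, by 1.33 ± 0.26 (adjusted p = 0.00993). Of 13 other collectins and partners 5 rose, with a median of 0.95. They were the receptors Tlr2 (1.15 ± 0.24, adjusted p = 0.0152) and Tlr4 (1.13 ± 0.22, adjusted p = 0.00977), its partner Ly96 (1.22 ± 0.26, adjusted p = 0.0182), and the collectin-binding proteins Sirpa (1.02 ± 0.26, adjusted p = 0.0417) and Calr (0.80 ± 0.20, adjusted p = 0.0372).

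Clearance genes rose in 4 of 12 cases in the same lungs. Beside these and the macrophage and mucous rises below stand 3.23% of all probes called higher. Among the clearance genes were Pparg, a transcription factor of alveolar macrophages (1.77 ± 0.42, adjusted p = 0.035), and Csf2ra, a receptor chain for GM-CSF (1.58 ± 0.26, adjusted p = 0.00349). Macrophage markers moved with them: 5 of 10 rose, 1 fell (Siglecf fell by 1.09 ± 0.27, adjusted p = 0.0416), and the median was 1.55 beside -0.04 over all probes. Cd68 rose by 3.12 ± 0.32 (adjusted p = 0.000122) and the integrin Itgax by 3.16 ± 0.27 (adjusted p = 2.64e-05). The mean macrophage marker level was 0.95 to 2.11 on Stat6+/- lung arrays against -0.29 to 0.31 on Stat6-/- and -0.12 to 0.86 on Epi+ arrays. The mean of the type II markers was 0.08 to 0.41 on Stat6+/-, -0.54 to 0.23 on Stat6-/- and -0.65 to 0.09 on Epi+ arrays. Type I markers gave 3 calls of 9, all lower, and Cav1, a caveolar coat gene, fell by 1.21 ± 0.20 (adjusted p = 0.00451). Beside these and the secretory counts that follow stand 4.84% of all probes called in either direction. Of 11 secretory markers 4 fell and 1 rose, with a median of -0.49: the secretoglobin gene Scgb3a2 fell by 3.19 ± 0.45 (adjusted p = 0.00204), Pon1 fell by 3.57 ± 0.22 (adjusted p = 2.09e-06), and the antimicrobial lectin gene Reg3g rose by 2.60 ± 0.19 (adjusted p = 9.16e-06). Their mean level was -0.68 to -0.02 on Stat6+/-, -0.09 to 0.90 on Stat6-/- and -0.11 to 0.59 on Epi+ arrays. Of this list, Scgb1a1 and Cyp2f2 had a ratio within 0.005 of 1 on 6 and 4 of the 15 IL-13 lung arrays. Their centred levels there mirror the array median. Of 7 mucous markers 5 rose, with a median of 3.82. The part of these cells in the Sftpd and Sftpa1 results was not tested. Without the Stat6-/- arrays that stood apart, 1.93% of all probes passed in either direction. Of the lists, 3 of 12 type II markers, 3 of 18 lipid genes, 1 of 3 processing genes, 1 of 13 collectins and partners, 2 of 12 clearance genes, 5 of 10 macrophage and 5 of 7 mucous markers were higher. No regulator passed (0 of 12, with 2 at an unadjusted p under 0.05), and 4 of 11 secretory and 1 of 9 type I markers were lower.

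In OVA against PBS lung the macrophage marker mean was also higher, at 1.12 to 1.73 against -0.25 to 0.50, without a change of Sftpd or Sftpa1 that passed. The type II marker mean there was -1.09 to -0.55 in OVA and -0.75 to -0.46 in PBS lung, which overlapped. In limma 0 of 12 type II markers passed, with 2 at an unadjusted p under 0.05, beside 1.75% of all probes called.

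The probes most like each member were ranked by Pearson correlation across arrays. In the 25 perfusate arrays, over 12066 probes with a value on all of them, Sftpa1 was followed most closely by Slco1a5, an organic anion carrier (r = 0.916), Trf, the iron carrier transferrin (0.901), Serpinf1, a secreted serpin (0.892), Tomm70a, a mitochondrial import receptor (0.874), and the growth factor gene Tgfb3 (0.872). These correlations carry the group differences and shared preparations and are given without a test. For Sftpd they were Avil (0.898), Tmem176a (0.854), Antkmt (0.854), Eps8l1 (0.84) and Thbs2 (0.836). Because Sftpd differed between preparations, the ranking was repeated after the mean of each preparation was removed, a step chosen after the data were seen. It then gave Chil1, a chitinase-like protein (0.911), complement factor B (Cfb, 0.872), Macrod2 (0.856), Gstm5 (0.842) and mesothelin (Msln, 0.839). These genes were chosen by their likeness to Sftpd over the same groups, so their own differences are a description. In Stat6+/- against Stat6-/- perfusate they were -1.23 for Chil1, -1.20 for Cfb, -0.73 for Macrod2, -0.48 for Gstm5 and -1.68 for Msln. For Sftpc the closest were the calcium channel gene Cacna1h (0.807), Cfap126 (0.794), the claudin Cldn3 (0.792), Setd7 (0.775) and Manf (0.774), and Sftpa1 and Sftpc had a correlation of -0.522.

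In the 15 IL-13 lung arrays, over 8662 probes, Sftpd was closest to Cd74, the invariant chain of MHC class II (r = 0.974), Tnfsf13 (0.95), Tmed3 (0.942), Lbp, the lipopolysaccharide-binding protein (0.942), and Tmc4 (0.936). Sftpa1 was closest to Abhd12 (0.938), Tmed2 (0.923), Gclc (0.911), Lcp1 (0.91) and Tyrobp, a myeloid adaptor (0.902). The correlation of Sftpa1 with Sftpd was 0.784 in these arrays and 0.549 in perfusate, or 0.72 in perfusate with the preparation means removed.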

How the data were processed

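RNA of 25 perfusate and 25 whole lung samples was measured on 50 spotted 2-channel arrays. The authors deposited a log2 ratio for each spot, with no statement here of scanner, background correction or normalization. The ratio was read as sample over reference. This direction is likely, not stated: Il13 was 2.72 higher in Stat6-/- IL-13 than in PBS perfusate. Arrays were centred on their medians (-0.96 to 0.30), and the 19152 and 18240 spots were averaged by accession. The platform annotation gave the symbols, and RefSeq (GRCm38.p6) their current form; 15418 and 14857 spots had 1 symbol, 7 and 6 several and 3727 and 3377 were unlisted.

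Probes with at least 3 values in every group were fitted by least squares with moderated variances (limma 3.58.1, R 4.3.3). Where leaving out arrays left a group fewer than 3, all its values were required. P-values were adjusted in each comparison over all its probes (Benjamini-Hochberg), and probes with an adjusted p under 0.05 were called. The perfusate fit (25 arrays) had the 5 reference preparations as a block, the whole lung IL-13 fit (15) pools 3 and 4, the OVA and PBS lung fit (10) a single pool, and the tissue fit 40 arrays. The code was tested on simulated data. Every member with a probe is named; likeness names the 5 highest correlations; lists name up to 4 called genes each, and examples come from these. Members and lists were chosen with earlier results of these data known. Alternatives covered centring, quantile normalization, blocks, groups in the fit, missing values, array weights, spots and left-out arrays.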

Additional observations from a re-analysis of the deposited data

Results flagged for a closer look

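In 3 results the effect of genotype under IL-13 differed between perfusate and whole lung by a test of the difference itself (limma interaction, Benjamini-Hochberg adjusted over 15370 probes). For Sftpa1, Stat6+/- against Stat6-/- was -2.55 in perfusate and 0.90 in whole lung, and the difference was -3.45 (adjusted p = 5.26e-08). For Sftpd the same contrast was -0.82 in perfusate, where it did not pass, and 1.63 in whole lung, with a difference of -2.46 (adjusted p = 1.59e-05). For Sftpa1 in Epi+ against Stat6-/-, -1.88 in perfusate and 0.24 in whole lung differed by -2.12 (adjusted p = 0.00166). The whole lung value did not pass. The call of the difference was lost without centring (adjusted p = 0.303) and without the Stat6-/- arrays that stood apart in sex-linked genes. In all 3 results tissue cannot be told apart from RNA amplification and the references, which also differed. In the 25 groups of 5 arrays in which a member was checked for an array far from the others, no gap passed Dixon's critical value of 0.71.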

How the results depend on the processing

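Over 33 results of a member and 269 alternatives other than leaving out 1 array, 241 kept their direction and side of the threshold, 17 lost and 3 gained the call and 8 changed sign; the cause was not tested. In perfusate, Sftpa1 in Stat6+/- against Stat6-/- (-2.74 to -2.42) and against PBS (-3.15 to -3.01) passed under every one of them. Comparisons are in the order perfusate Stat6+/- against Stat6-/-, Epi+ against Stat6-/-, Stat6+/- against Epi+, OVA, Stat6-/-, Stat6+/- and Epi+ against PBS; whole lung Stat6+/- against Stat6-/-, Epi+ against Stat6-/-, Stat6+/- against Epi+, OVA against PBS; then the 2 tissue differences.

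Without centring, limma called 128, 17, 0, 15, 4, 311, 69, 284, 6, 77, 36, 373 and 5 probes in that order. Sftpa1 gave 0.53 and Sftpd 1.26 (whole lung Stat6+/- against Stat6-/-), Sftpd 0.85 (Stat6+/- against Epi+ lung) and Sftpa1 -1.91 (tissue difference, Epi+), none of which passed, and Sftpd changed sign against PBS in OVA (-0.0087) and Stat6-/- perfusate (-0.037). Quantile normalization called 0 (Stat6+/- against Epi+ perfusate), 264 (Stat6-/- against PBS), 516 and 212 (lung Stat6+/- against Stat6-/- and Epi+), 374 and 7 (tissue). Sftpa1 was then 0.71 in lung Stat6+/- against Stat6-/- and Sftpd 0.83 against Epi+, both not called, while Sftpc in Stat6-/- against PBS (0.056) and Sftpa1 in OVA lung (0.011) changed sign. Without the reference block, counts were 270, 31, 2, 19, 16, 477 and 107 in perfusate, 391 and 282 for Stat6+/- lung and 350 and 5 for tissue, and Sftpd in Stat6+/- against Epi+ lung was 1.16, not called. With only the 2 groups in the fit, counts were 77, 1, 0, 0, 0, 4 and 0 in perfusate and 400 and 109 for Stat6+/- lung; Sftpa1 was -1.88 and -2.34 for Epi+ against Stat6-/- and PBS perfusate and 0.90 in Stat6+/- against Stat6-/- lung, and Sftpd 1.03 against Epi+ lung, all no longer called. The counts of 0 stood beside 669 (without centring), 1196 (quantile) and 1369, 1759, 2010 and 2802 (2 groups) probes at an unadjusted p under 0.05.

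The split of calls also moved with the scaling. Without centring, higher and lower calls numbered 102 and 182 (main scaling 520 and 259) in Stat6+/- against Stat6-/- lung, 270 and 103 (192 and 470) in their tissue difference, 11 and 6 (25 and 57) in Epi+ against Stat6-/- perfusate, 22 and 47 (215 and 263) in Epi+ against PBS, 35 and 1 (256 and 43) in OVA lung and 0 and 5 (2 and 13) in the Epi+ tissue difference. After quantile normalization, they were 176 and 88 (51 and 50), 840 and 771 (480 and 723) and 327 and 228 (215 and 263) in Stat6-/-, Stat6+/- and Epi+ against PBS, 173 and 39 (386 and 164) in Stat6+/- against Epi+ lung and 180 and 78 (256 and 43) in OVA lung.

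With probes measured on every array, counts were 7 (Stat6+/- against Epi+ perfusate) and 9 (tissue, Epi+), and Sftpd in Stat6+/- against Stat6-/- perfusate passed at -0.82 (adjusted p = 0.0471). Array weights called 989, 170 and 261 in the first 3, 2299 and 1305 for Stat6+/- and Epi+ against PBS, 333 for Stat6+/- against Epi+ lung and 796 for OVA lung. Under weights, Sftpd passed at -0.82 in Epi+ against PBS perfusate and at -1.57 for tissue in Epi+, lost its call at 0.91 in Stat6+/- against Epi+ lung and changed sign in OVA perfusate (-0.069), as did Sftpa1 in OVA lung (0.079). Without the 5 Stat6-/- arrays that stood apart in sex-linked genes, counts were 183, 33 and 24 (against Stat6-/- and Stat6-/- against PBS), 289 and 4 in lung and 229 and 6 for tissue. Sftpa1 then gave 0.82 in Stat6+/- lung and -2.15 for tissue in Epi+, neither called, and Sftpd -0.047 in Stat6-/- against PBS. Without preparation 1.3, counts were 35 (Epi+ against Stat6-/-), 25 (OVA), 13 (Stat6-/- against PBS) and 251 (Epi+ against PBS), and Sftpd in OVA was -0.083.

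Whole lung groups share replicate numbers, but only 7 of 12 same-number pairs of IL-13 arrays and 0 of 4 OVA and PBS pairs had a correlation of deviations over 0.1. The IL-13 correlations followed the reference pool, with 7 of 8 such pairs in 1 pool over 0.1 and 4 of 4 in different pools below 0, so they give no separate reading of the numbers, and nothing in the labels pairs the samples. With the replicate block, counts were 109, 7, 64 and 5 in whole lung, and Sftpa1 (0.77) and Sftpd (1.64) in Stat6+/- against Stat6-/- and Sftpd (1.10) against Epi+ lung were not called.

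Leaving out 1 array at a time, counts ranged from 347 to 539, 42 to 92, 0 to 18, 17 to 34, 12 to 547, 723 to 1452 and 192 to 871 in perfusate, 470 to 1066, 7 to 13, 273 to 806 and 105 to 308 in whole lung and 502 to 919 and 8 to 19 for tissue. Member results that changed sign or call ranged as follows. In perfusate Sftpd gave -1.02 to -0.67 (Stat6+/- against Stat6-/-), -0.10 to 0.25 (against Epi+), -0.86 to -0.50 (against PBS) and -0.087 to 0.19 (OVA), and Sftpc 0.54 to 1.02 (Stat6+/- against PBS), -0.30 to 0.15 (OVA) and -0.21 to 0.23 (Stat6-/- against PBS). In lung Sftpa1 gave 0.79 to 1.03 (Stat6+/- against Stat6-/-) and -0.36 to 0.28 (OVA), and Sftpd 0.88 to 1.16 (Stat6+/- against Epi+) and -0.19 to 0.10 (OVA). The tissue difference of Sftpd in Epi+ gave -1.64 to -1.41.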

Other observations

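Sftpc shared its narrow whole lung ratio with a few other abundant transcripts of lung. On the 15 IL-13 lung arrays the deposited ratio lay within 0.005 of 1 on 14 arrays for Tmsb4x, 12 for Sftpc, 9 for the club cell carbonyl reductase Cbr2, 8 for the translationally controlled gene Tpt1 and 6 each for the club cell secretory protein gene Scgb1a1, Myl6 and Rps27. On the 10 OVA and PBS lung arrays, these counts were 10 for Sftpc, 8 for Tpt1, 8 for Tmsb4x, 7 for Cbr2, 6 each for Actb and Myl6 and 5 each for Scgb1a1 and Cyp2f2. Over these arrays the whole range of the Sftpc log2 ratio was 0.34 on the larger platform and 0.0058 on the smaller, against 1.24 and 2.76 for Cbr2.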
